A study of Mus musculus with 22 samples.

Results

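The 58 genes described here encode proteins of the nucleolus and of ribosome assembly. They were taken as a fixed list of symbols, drawn up with earlier results of these data known, and all 58 were found among the 24982 genes of the files and among the 12387 genes with enough counts to be tested. By role, 7 act in transcription of the ribosomal RNA genes, 3 are box C/D and 5 are box H/ACA small nucleolar RNA (snoRNA) particle proteins, 19 serve the small and 21 the large ribosomal subunit, and 3 are the abundant nucleolar proteins Npm1, Ncl and Gnl3. Nolc1, a chaperone of snoRNA particles, is counted here with the box H/ACA proteins. The RNA came from eosinophils sorted at maturation stages I to IV from the bone marrow of wild-type C57BL6 mice. All mice, controls included, had received 400 ng recombinant IL-33 into the peritoneum each day for 7 days, which raises eosinophil numbers. From the last of those injections on, they also received 400 µg of anti-IL5 antibody or of isotype control antibody on each of 3 days. Each antibody group had 3 libraries at stages I, III and IV and 2 at stage II, 22 in all. The labels do not say how many animals a library holds or whether libraries with the same number share animals, so p-values measure only the spread between these samples.

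Ribosomes are assembled mainly in the nucleolus. RNA polymerase I copies the ribosomal RNA genes, snoRNA particles guide the methylation and pseudouridylation of the transcript, and successive assembly complexes fold, cut and export the subunits. Growing cells need many ribosomes and express these genes strongly, often under the transcription factor Myc, whereas granulocytes lose most of their nucleolar activity as they mature. IL-5 is the main growth and survival cytokine of the eosinophil lineage.

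Myc and its partner Max bind the E-box CACGTG, so the RefSeq promoter windows (GRCm38.p6, 250 bases before to 50 after each start) were searched for these letters. The motif reads the same on both strands. It stood in 12 of 61 windows of the members (19.67%), in 15.38% of 104 windows of other ribosome biogenesis genes and in 7.15% of all 32851 windows. A window was at hand for 52 members. The motif stood in 12 of them, of which 7 were called lower under anti-IL5 at 1 or more stages, against 22 of the 40 without it. The motif also stood in windows of Imp4, Ltv1, Pes1, Rrn3 and Utp20, which were not called. The sites of the 7 called members are shown, with the motif in capitals, 5′ to 3′ on the strand of the gene.
Tsr1, chr11:74898092-74898121, plus strand: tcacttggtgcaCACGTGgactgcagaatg
Wdr43, chr17:71616220-71616249, plus strand: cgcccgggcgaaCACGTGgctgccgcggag
Nop2, chr6:125131811-125131840, plus strand: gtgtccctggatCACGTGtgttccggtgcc
Mybbp1a, chr11:72441355-72441376, plus strand: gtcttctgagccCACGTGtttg
Grwd1, chr7:45830740-45830767, minus strand: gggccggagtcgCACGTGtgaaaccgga
Nle1, chr11:82908355-82908384, minus strand: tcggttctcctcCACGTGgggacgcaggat
Utp18, chr11:93885769-93885798, minus strand: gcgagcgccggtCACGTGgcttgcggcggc
A match of letters is a description of these windows and no measurement of binding.

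Libraries held 7161264 to 14781250 gene counts and 12359 to 13829 genes with a count. Values are counts over each library's total of gene counts, in CPM, after scaling by the trimmed mean of M-values (TMM). None of the 10 eosinophil markers was at 0 in any group, and their summed level ranged from 9165 CPM at stage IV to 68167 CPM at stage II. A gene was called where edgeR's quasi-likelihood test gave it a p under 0.05 after Benjamini-Hochberg adjustment over all 12387 genes. In bulk samples, fewer cells of a type and less RNA per cell cannot be told apart.

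In isotype libraries the summed CPM of the group, a relative level, was highest at stage I and far lower by stage III. The summed level of the 58 genes was 6836 ± 398 CPM at stage I (SD, n = 3), 4519 ± 24.7 at stage II (n = 2), 2212 ± 44.6 at stage III (n = 3) and 2206 ± 23.2 at stage IV (n = 3). Under anti-IL5 it was 4591 ± 110.0, 2905 ± 210.1, 1746 ± 95.8 and 2057 ± 145 CPM. Every anti-IL5 library lay below every isotype library of its stage at stages I, II and III, while at stage IV the ranges overlapped (1909 to 2199.5 CPM against 2184 to 2230.2 CPM). The median member stood at 63.2%, 28.9% and 28.5% of its isotype stage I mean in isotype stages II, III and IV, and at 63.9%, 38.2%, 18.8% and 25.7% in anti-IL5 stages I to IV. The highest of the 8 group means fell in isotype stage I for 54 members, and the lowest fell in anti-IL5 stage III for 36 and in anti-IL5 stage IV for 14.

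**Figure D1:**
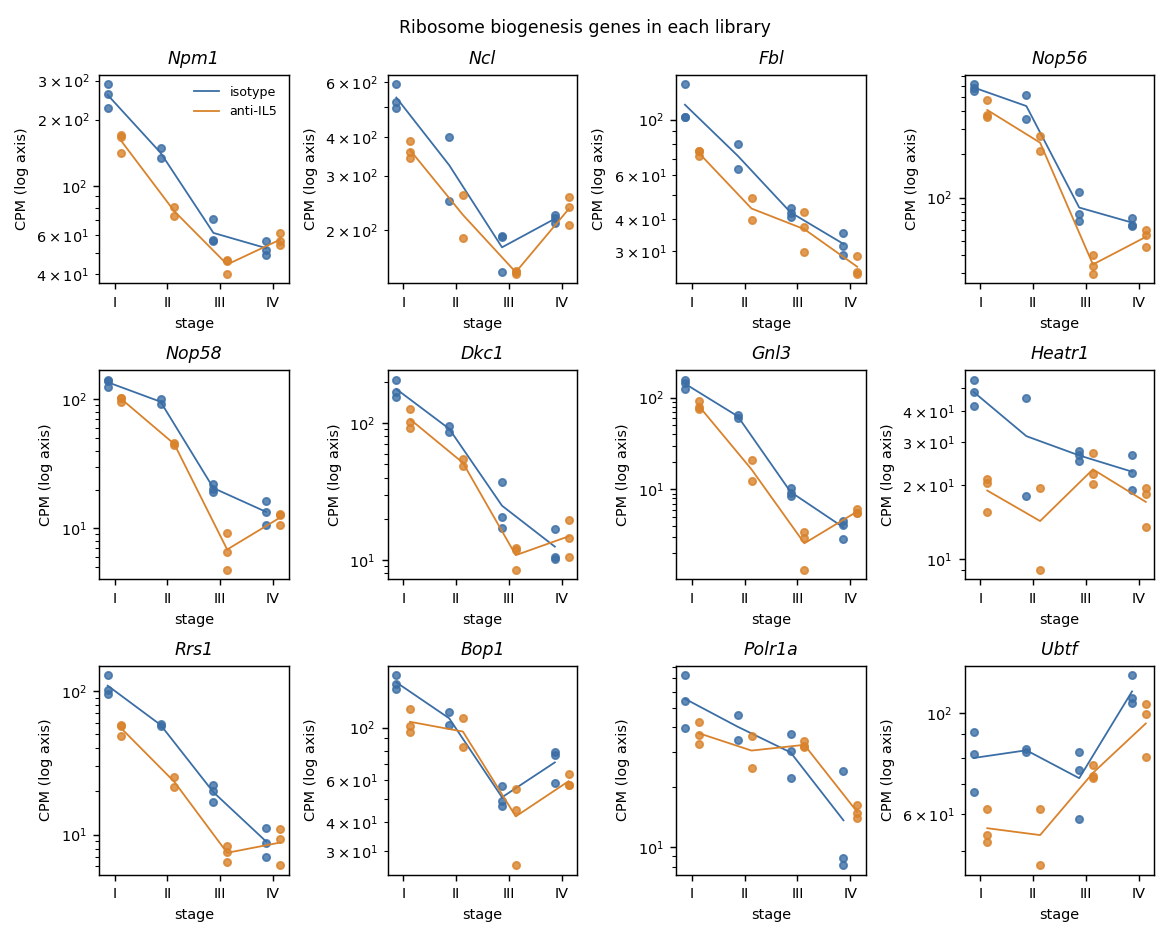
CPM of 12 members in each library (points, log axis) by maturation stage, with lines through the group means of isotype (blue) and anti-IL5 (orange) libraries. For most of these genes the means decline from stage I to stage III with the anti-IL5 line below the isotype line. The anti-IL5 mean is above the isotype mean at stage IV for Npm1, Ncl, Dkc1, Gnl3 and Polr1a, and at stage III for Polr1a and Ubtf. Ubtf is highest at stage IV.

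Levels per kilobase of exon divide CPM by the merged exons of all annotated transcripts of a gene, which can be longer than its mRNA. So measured, the most abundant members at isotype stage I were Nop10 at 193 and Nhp2 at 174, small proteins of the box H/ACA particle. Next came Nop56 at 142 and Npm1 at 97.0 CPM per kilobase. Ncl, with 10188 exon bases so counted, was at 52.6, and the order depends on these lengths. The lowest was Utp20, a scaffold of the small-subunit processome, at 1.40 CPM per kilobase.

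At stage I, anti-IL5 lowered 21 of the 58 genes and raised 0, where 1.82% of all genes tested were called lower and 2.61% higher. All 58 log2 fold changes were negative, with a median of -0.65 beside 0.02 over all genes. In 46 members every anti-IL5 library was below every isotype library, beside 14.0% of all genes. The calls covered 1 of 7 genes of ribosomal RNA transcription, 1 of 3 box C/D proteins, 3 of 5 box H/ACA proteins, 7 of 19 small-subunit factors, 6 of 21 large-subunit factors and all 3 of Npm1, Ncl and Gnl3. The plot of fold changes by role shows these calls spread over every role.

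**Figure D2:**
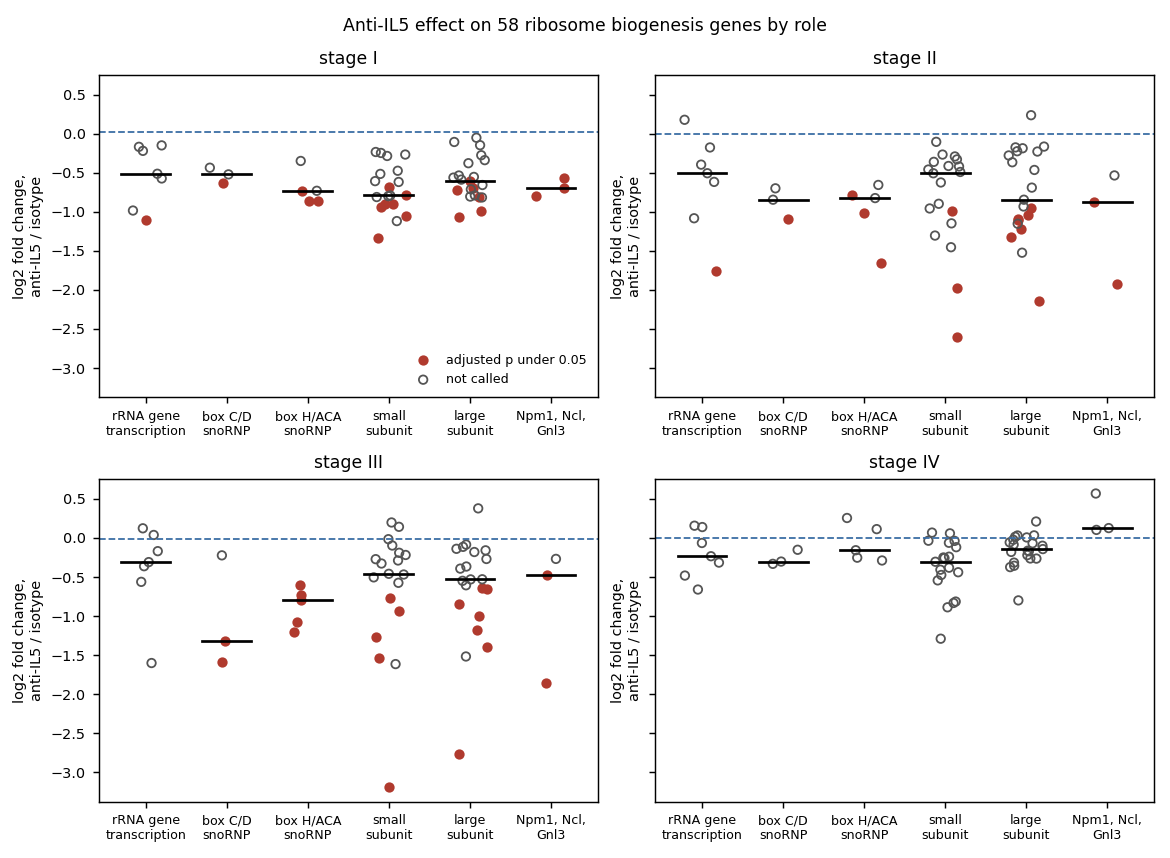
Log2 fold change of anti-IL5 over isotype for each of the 58 members by role, at each stage. Filled red points passed an adjusted p of 0.05, black bars are role medians and the dashed blue line is the median of all genes tested; at stages I to III most points lie below that line, and at stage IV 0 are filled.

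Npm1, nucleophosmin, an abundant nucleolar histone and ribosome chaperone (chr11:33152287-33163206, GRCm38), was at 225, 289.7 and 260.3 CPM in the isotype libraries of stage I and at 141, 168 and 171 CPM in the anti-IL5 libraries. The groups did not overlap, and Npm1 fell (log2 fold change -0.69 ± 0.13, adjusted p = 0.00436). Ncl, nucleolin, which binds nascent ribosomal RNA, was at 497, 593 and 518 CPM against 341, 389 and 358 CPM, again without overlap (log2 fold change -0.56 ± 0.16, adjusted p = 0.0481). Gnl3, nucleostemin, a nucleolar GTP-binding protein named for its abundance in stem cells (chr14:31012433-31019152), was at 157, 145 and 123 against 75.2, 78.6 and 90.8 CPM and fell (log2 fold change -0.80 ± 0.22, adjusted p = 0.0427).

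The largest fall at stage I was that of Heatr1, the counterpart of yeast Utp10, which links polymerase I transcription to small-subunit processing (chr13:12395027-12440289). Its level was 53.9, 48 and 42.1 CPM under isotype and 20.4, 21.1 and 15.5 CPM under anti-IL5, so that the highest anti-IL5 library had less than the lowest isotype library (log2 fold change -1.34 ± 0.29, adjusted p = 0.00917). Mybbp1a, a Myb-binding nucleolar protein, was at 139, 179 and 140.1 CPM against 60.5, 71.8 and 81.4 CPM and fell (log2 fold change -1.10 ± 0.28, adjusted p = 0.0292). Rrp1b and Rrs1, large-subunit factors, and Utp15, a small-subunit factor, also fell, with log2 fold changes of -1.06 ± 0.20, -0.99 ± 0.20 and -1.05 ± 0.26 (adjusted p = 0.00352, 0.00635 and 0.0214). Wdr43, the counterpart of yeast Utp5, had the smallest p of the small-subunit factors and went from 207 ± 17.8 to 111 ± 15.3 CPM (SD, n = 3, log2 fold change -0.90 ± 0.16, adjusted p = 0.00257).

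Among the snoRNA particle proteins, Nolc1, a chaperone of snoRNA particles, was at 142, 138 and 117 CPM under isotype and 75.1, 74.3 and 69.6 CPM under anti-IL5. It fell without overlap of the groups (log2 fold change -0.86 ± 0.16, adjusted p = 0.00346). Fibrillarin, the methyltransferase encoded by Fbl, went from 115 ± 20.8 to 73.8 ± 1.71 CPM and fell (log2 fold change -0.64 ± 0.16, adjusted p = 0.0292). Nop56, Dkc1 and Bop1 lay lower in all 3 anti-IL5 libraries but did not pass the test, with log2 fold changes of -0.52 ± 0.18, -0.73 ± 0.25 and -0.55 ± 0.20 (adjusted p = 0.111, 0.111 and 0.12). Polr1a, the largest subunit of RNA polymerase I, and Ubtf, its upstream binding factor, were not called either (-0.57 ± 0.31, adjusted p = 0.335, and -0.51 ± 0.16, adjusted p = 0.0678).

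The number of calls at stage I depended on each library and on the fit. It was 40 members when only the 6 libraries of the stage were fitted and 34 with limma-voom. Over all genes the main fit called 225 lower and 323 higher, the 6-library fit 591 and 532 and limma-voom 427 and 344. The member count was 10, 6 and 10 without isotype replicate 1, 2 or 3. It was 8, 7 and 7 without anti-IL5 replicate 1, 2 or 3. These 6 fits called 184 to 465 of all genes, lower and higher together. Nolc1, Wdr43, Rrp1b, Rrs1 and Npm1 were called in all 6 of these fits, and each of the other 16 lost its call in at least 1.

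At stage II, 17 members were lower and 0 higher, beside 1.19% and 0.565% of all genes. The median log2 fold change was -0.74 (0.00 over all genes), 56 of the 58 values were negative, and in 43 members every anti-IL5 library was below every isotype library (18.4% of all genes). Calls fell on 1 of 7 transcription genes, 1 of 3 box C/D proteins, 3 of 5 box H/ACA proteins, 3 of 19 small-subunit and 7 of 21 large-subunit factors and on Npm1 and Gnl3.

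The largest fold changes lay further from 0 than at stage I, a difference between stages that was called for 0 members. Gnl3 was at 59.8 and 65.4 CPM in the isotype libraries and 20.8 and 12.2 CPM in the anti-IL5 libraries, well apart (log2 fold change -1.93 ± 0.29, adjusted p = 0.00153). Tsr1, a late small-subunit assembly factor (chr11:74898071-74909342), was at 9.85 and 18.6 against 2.04 and 2.62 CPM (log2 fold change -2.60 ± 0.49, adjusted p = 0.0109). Of the exon bases of Tsr1, 32.3% also belong to Srr, and without strand the reads of both genes cannot be told apart there.

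Rrp12, which helps export ribosomal subunits, was at 17.2 and 33.3 against 5.86 and 7.01 CPM and fell with a wide isotype spread (log2 fold change -1.97 ± 0.50, adjusted p = 0.0422). Mybbp1a was at 31.1 and 87.3 against 14.4 and 20.7 CPM, the isotype libraries again far apart (log2 fold change -1.75 ± 0.36, adjusted p = 0.0161). Gar1, a box H/ACA protein, was at 30 and 53.2 against 10.1 and 16.2 CPM (log2 fold change -1.66 ± 0.32, adjusted p = 0.011). In all 3 genes the groups did not overlap.

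Nop58, a core box C/D protein (chr1:59684971-59719044), showed little spread at stage II, with 91.7 and 100.4 CPM against 44.4 and 45.8 CPM (log2 fold change -1.09 ± 0.22, adjusted p = 0.016). Rrs1, a large-subunit factor (chr1:9545408-9547455), was as tight, with 58.8 and 57.5 against 25.3 and 21.4 CPM (log2 fold change -1.32 ± 0.26, adjusted p = 0.0122). Npm1 fell from 142 ± 10.8 to 77 ± 5.22 CPM (SD, n = 2, log2 fold change -0.88 ± 0.17, adjusted p = 0.011). Of the genes named at every stage, Ncl, Fbl, Nop56, Dkc1, Heatr1, Bop1, Polr1a and Ubtf were not called at stage II, with log2 fold changes from -1.15 (Heatr1, adjusted p = 0.122) to -0.19 (Bop1, adjusted p = 0.817).

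With 2 libraries in each group, the stage II count rested on single libraries. It was 16 without isotype replicate 1, 2 without isotype replicate 2, 2 without anti-IL5 replicate 1 and 3 without anti-IL5 replicate 2, each lone library being assumed to vary like the other groups. Gnl3 was the single member called in all 4 of these fits. With only the 4 stage II libraries in the edgeR fit, 0 members were called. Over all genes that fit called 1 lower and 0 higher, against 147 and 70 in the main fit.

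At stage III, 21 members were lower and 0 higher, beside 5.05% and 1.32% of all genes. The median log2 fold change was -0.52 (-0.01 over all genes), 53 of 58 values were negative, and all libraries were lower in 31 members and higher in 1 (15.1% and 10.9% of all genes). All 5 box H/ACA proteins were called, as were 2 of 3 box C/D proteins, 5 of 19 small-subunit and 7 of 21 large-subunit factors and 2 of Npm1, Ncl and Gnl3. None of the 7 transcription genes was. Of these, Polr1b, the second largest polymerase I subunit, had the smallest p (-1.60 ± 0.52, adjusted p = 0.0685).

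Nop58 had the smallest p of the 58. It was at 22.1, 20.4 and 19.2 CPM in isotype and 6.57, 9.23 and 4.81 CPM in anti-IL5 libraries, with no overlap (log2 fold change -1.58 ± 0.20, adjusted p = 6.74e-05). Its partner Nop56 was at 77.5, 68.4 and 110.0 against 40.1, 33.4 and 29.5 CPM, also apart (log2 fold change -1.31 ± 0.19, adjusted p = 0.000279), whereas Fbl, the third protein of the particle, overlapped between groups (-0.22 ± 0.17, adjusted p = 0.47).

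Gnl3 was down to 9.16, 8.48 and 10.4 CPM under isotype and 2.94, 3.46 and 1.34 CPM under anti-IL5 (log2 fold change -1.86 ± 0.27, adjusted p = 0.000282). Rrs1 was at 22.1, 17 and 20.1 against 6.47, 8.36 and 7.57 CPM (log2 fold change -1.40 ± 0.22, adjusted p = 0.000596). In both genes the anti-IL5 libraries were all below the isotype libraries. Dkc1, dyskerin, the pseudouridine synthase of the box H/ACA particle, went from 25 ± 10.5 to 10.9 ± 2.03 CPM (log2 fold change -1.20 ± 0.27, adjusted p = 0.0102).

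Tsr1 and Grwd1, a chaperone of large-subunit assembly, had the largest fold changes, with group means under 10 CPM. Tsr1 was at 8.14, 3.59 and 7.54 against 0.294, 0.961 and 0.801 CPM (log2 fold change -3.19 ± 0.45, adjusted p = 0.000247), the anti-IL5 values resting on 3, 10 and 9 counts. Grwd1 was at 7.13, 4.37 and 10.3 against 2.25, 0.961 and 0 CPM (log2 fold change -2.77 ± 0.55, adjusted p = 0.0038), from 23, 10 and 0 counts under anti-IL5. Wdr75, a small-subunit factor, was also called (log2 fold change -1.27 ± 0.32, adjusted p = 0.0212). Npm1 also fell (log2 fold change -0.47 ± 0.14, adjusted p = 0.0421), and the difference of its effect between stages II and III was not called.

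Ncl, Heatr1, Bop1, Polr1a and Ubtf were not called at stage III, with log2 fold changes from -0.27 (Ncl and Bop1) to 0.12 (Polr1a) and adjusted p from 0.354 (Ncl) to 0.931 (Ubtf). The stage III count was 17, 17 and 11 without isotype replicate 1, 2 or 3 and 21, 12 and 9 without anti-IL5 replicate 1, 2 or 3, and 7 with only the 6 libraries of the stage in the fit. Nop56, Nop58, Wdr43, Tsr1, Nop16, Rrs1, Grwd1 and Gnl3 were called in all 6 fits without 1 library.

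At stage IV edgeR called 0 of the 58 in either direction, beside 0.864% of all genes lower and 0.186% higher. At an unadjusted p under 0.05, 3 were lower and 1 was higher, and DESeq2 called 1 member, Rrp1b (DESeq2 adjusted p = 0.0216), named after its values were seen. The median log2 fold change was -0.17, with 44 values negative, and all libraries were lower in 9 members and higher in 2 (8.86% and 7.09% of all genes). In edgeR Rrp1b also came nearest (-0.80 ± 0.22, adjusted p = 0.0861). Npm1 was at 56.7, 48.9 and 51.6 CPM against 61.2, 54 and 56.6 CPM, with overlapping groups (0.13 ± 0.14, adjusted p = 0.916). Gnl3 was at 4.08, 4.54 and 2.9 CPM against 5.49, 6.14 and 5.57 CPM, higher in all anti-IL5 libraries but not called (0.57 ± 0.26, adjusted p = 0.496). The other 8 genes named at every stage had log2 fold changes from -0.41 ± 0.29 (Heatr1) to 0.26 ± 0.27 (Dkc1), and adjusted p from 0.643 (Fbl) to 0.983 (Polr1a).

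Over the stages, 33 members were lower under anti-IL5 at 1 or more stages and 25 at none, and no member was called higher at any stage. Gar1, Nhp2, Nolc1, Wdr43, Nop16, Noc2l, Rrp1b, Rrs1, Npm1 and Gnl3 were lower at stages I, II and III. Mybbp1a, Nop58, Rrp12, Tsr1, Ddx21 and Nop2 were lower at 2 stages and 17 others at 1. The 25 not called included 6 of the 7 transcription genes (Polr1a, Polr1b, Polr1c, Polr1e, Ubtf and Rrn3), Bop1 and Pes1 of the complex that processes large-subunit RNA, and Imp3 and Imp4 of the small-subunit processome. Of the exon bases of Noc2l, 20.9% also belong to Samd11, so its reads carry the same limit as those of Tsr1. The annotation names 2 pseudogenes of Mrto4, a large-subunit factor not called under anti-IL5 at any of the 4 stages, which can share its reads.

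Whether the effect of anti-IL5 differed between adjacent stages was tested directly. Between stages I and II and between II and III, edgeR, DESeq2 and limma-voom called 0 members, and edgeR called 0.00% of all genes. At an unadjusted p under 0.05, 3 members were more negative and 1 less negative at stage II than at stage I, and 0 and 3 at stage III than at stage II. Between stages III and IV, 3 members differed, all with a less negative or positive effect at stage IV, beside 0.541% of all genes in that direction and 0.0969% in the other. The calls depended on the tool, with 8 members in DESeq2, 0 in limma-voom and 0 in edgeR fitted to only the groups compared. The 3 were Gnl3 (difference 2.43 ± 0.38 on the log2 scale, adjusted p = 0.0059), Nop58 (1.43 ± 0.28, adjusted p = 0.0155) and Rrs1 (1.38 ± 0.31, adjusted p = 0.0451). The count was 5 without isotype stage III replicate 2. Gnl3 and Nop58 kept their calls when any 1 of the 12 libraries was left out, and Rrs1 lost it in 9 of the 12 fits.

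**Figure D3:**
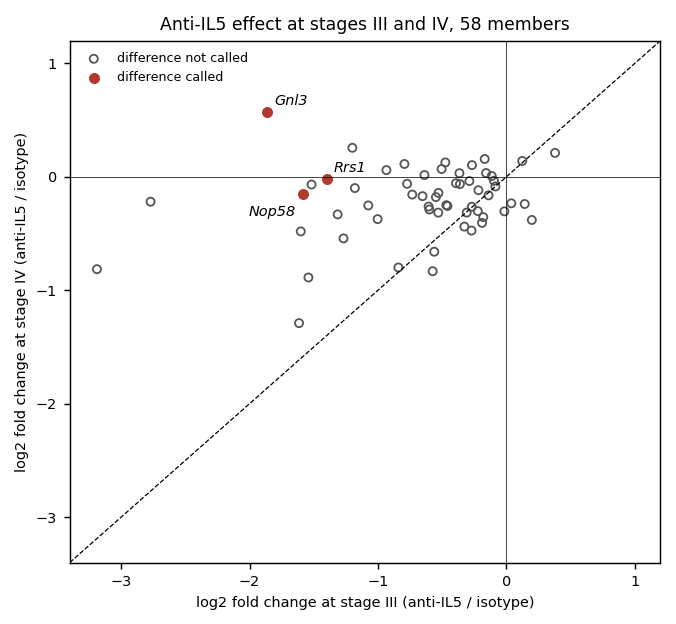
Log2 fold change of anti-IL5 over isotype at stage III (horizontal) and stage IV (vertical) for the 58 members, with the line of equal effects dashed. Most members lie above the line on its left side, and Gnl3, Nop58 and Rrs1 (red) are those whose difference between the stages was called.

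Many of the 58 genes also changed along maturation. The steps share libraries with each other and with the antibody comparisons, so their values are given side by side. From stage I to II, 20 members fell and 0 rose in isotype libraries (3.25% of all genes fell and 7.39% rose), and 30 fell and 0 rose under anti-IL5 (5.16% and 7.27%). The median log2 fold changes were -0.66 and -0.75. From stage II to III, 43 fell and 0 rose under isotype (18.1% and 19.0%), with a median of -1.13, and 37 fell and 2 rose under anti-IL5 (19.7% and 19.8%), with a median of -0.82.

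In the first step Gnl3 fell under isotype (log2 fold change -1.18 ± 0.26, adjusted p = 0.00483) and under anti-IL5 (log2 fold change -2.31 ± 0.28, adjusted p = 2.28e-05), as did Mybbp1a (-1.36 ± 0.33 and -2.02 ± 0.35, adjusted p = 0.00984 and 0.000682) and Tsr1 (-1.31 ± 0.41 and -3.10 ± 0.48, adjusted p = 0.0448 and 0.000261). Npm1 had the smallest p of the isotype step (log2 fold change -0.87 ± 0.15, adjusted p = 0.000945). In the second step all 3 box C/D proteins, all 5 box H/ACA proteins and Npm1, Ncl and Gnl3 fell under isotype. Nop56 and Nop58 were among the largest falls, by -2.34 ± 0.20 and -2.22 ± 0.20 under isotype and -2.81 ± 0.21 and -2.72 ± 0.21 under anti-IL5, all with an adjusted p of 3.69e-07 or less. The 2 rises, of Ubtf (0.45 ± 0.18, adjusted p = 0.0496) and of Bms1, a small-subunit GTPase (0.86 ± 0.31, adjusted p = 0.033), were called with TMM scaling but with neither of the other scalings tried.

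From stage III to IV calls went in both directions. Under isotype 15 members fell and 5 rose (18.8% and 14.8% of all genes), with a median of -0.15. Under anti-IL5 8 fell and 14 rose (13.4% and 10.4%), with a median of 0.33. The falls were 4 without anti-IL5 stage III replicate 1 and 5 without stage IV replicate 1, and the rises 9 without stage III replicate 2 or stage IV replicate 3. The 5 isotype rises were 3 without isotype stage III replicate 3 or stage IV replicate 1. Wdr12, a partner of Bop1 and Pes1, and Pwp1, a chromatin-bound regulator of ribosomal RNA genes, fell in both, Wdr12 by -2.12 ± 0.28 and -1.49 ± 0.29 and Pwp1 by -1.20 ± 0.15 and -1.20 ± 0.15 (isotype, then anti-IL5, adjusted p of 0.000607 or less). Mybbp1a and Noc2l rose in both, Mybbp1a by 1.48 ± 0.29 and 1.38 ± 0.30 (adjusted p = 0.00045 and 0.00145) and Noc2l by 1.14 ± 0.17 and 1.63 ± 0.18 (adjusted p = 2.29e-05 and 5.61e-07).

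Gnl3 fell from stage III to IV under isotype (log2 fold change -1.27 ± 0.26, adjusted p = 0.00053) and rose under anti-IL5 (log2 fold change 1.16 ± 0.28, adjusted p = 0.00356). Nop58 did likewise (-0.61 ± 0.19, adjusted p = 0.0164, and 0.82 ± 0.20, adjusted p = 0.00439). Rrs1 fell under isotype (-1.14 ± 0.22, adjusted p = 0.000296), while under anti-IL5 it was not called. These are the 3 genes of the called difference between stages, seen along the other axis. Ubtf rose under isotype from 82.2, 75.3 and 58.7 CPM to 108, 121 and 106 CPM, without overlap (log2 fold change 0.63 ± 0.16, adjusted p = 0.00353), and its stage IV mean was the highest of its 8 groups.

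For 46 of the 58 members the mean at anti-IL5 stage III was below the mean at isotype stage IV, 1 stage later, beside 50.3% of all genes tested. For 23 members the anti-IL5 stage I mean was below that of isotype stage II (51.7% of all genes), and for 11 the anti-IL5 stage II mean was below that of isotype stage III (51.6%).

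A wider list of 115 other ribosome biogenesis genes, of 124 symbols looked up, was tested in the same fit. Under anti-IL5 1, 6, 17 and 0 of them were lower at stages I to IV and 0, 0, 1 and 0 higher. Their medians were -0.30, -0.25, -0.19 and -0.05. Of all genes tested, 1.82%, 1.19%, 5.05% and 0.864% were lower and 2.61%, 0.565%, 1.32% and 0.186% higher. Ppan, a large-subunit factor, was lower at stage I (log2 fold change -0.67 ± 0.17, adjusted p = 0.0274), stage II (log2 fold change -1.50 ± 0.22, adjusted p = 0.00117) and stage III (log2 fold change -0.98 ± 0.18, adjusted p = 0.00278). Rcl1 and Utp4, small-subunit factors, were lower at stage II (-2.13 ± 0.33 and -1.29 ± 0.24, adjusted p = 0.00197 and 0.00948) and stage III (-1.84 ± 0.29 and -1.08 ± 0.20, adjusted p = 0.000596 and 0.0025). Along maturation 7, 59 and 16 fell and 1, 2 and 13 rose in the isotype steps. In the anti-IL5 steps 17, 55 and 8 fell and 1, 6 and 20 rose. Of all genes, 3.25%, 18.1% and 18.8% fell and 7.39%, 19.0% and 14.8% rose in the isotype steps. Under anti-IL5 5.16%, 19.7% and 13.4% of all genes fell and 7.27%, 19.8% and 10.4% rose.

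Cell cycle genes are given beside the members because dividing cells make ribosomes. Of 30 S phase genes 0 were called under anti-IL5 at stages I, II and IV and 18 were lower at stage III, and of 25 G2/M genes 2 were higher at stage I, 3 were lower at stage III and 0 were called at stages II and IV. Their medians at stages I and II were -0.15 and -0.28 for S phase and 0.64 and 0.51 for G2/M. From stage I to II under isotype 0 genes of either list fell, and 3 S phase and 1 G2/M genes rose. From stage II to III, 28 of 30 S phase and 24 of 25 G2/M genes fell under isotype and 28 and 25 under anti-IL5. From stage III to IV, 27 S phase and 24 G2/M genes fell under isotype (medians of -3.43 and -5.13, beside -0.15 for the members) and 23 and 24 under anti-IL5 (-1.88 and -3.76, beside 0.33). The part of cell division in the ribosome biogenesis results was not tested.

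**Figure D4:**
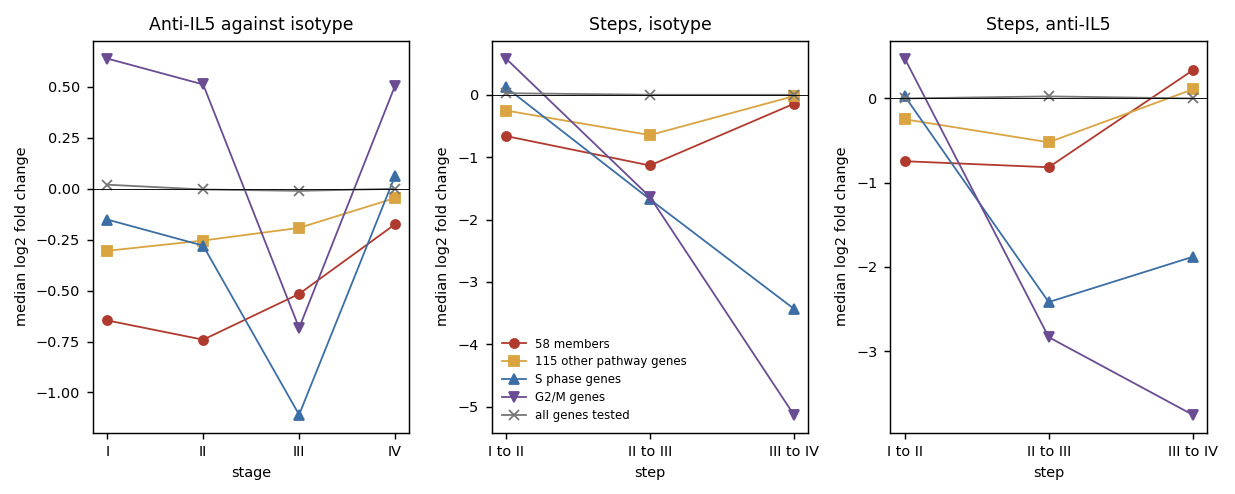
Median log2 fold change of the 58 members, 115 other ribosome biogenesis genes, 30 S phase genes, 25 G2/M genes and all 12387 genes tested, for anti-IL5 against isotype at each stage (left) and for each maturation step under isotype (middle) and anti-IL5 (right). At stages I and II the members lie lowest (-0.65 and -0.74), and at stage III the S phase genes do (-1.11).

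Myc is given beside the members. It was at 363, 317 and 298.7 CPM in isotype and 213, 185 and 257 CPM in anti-IL5 libraries of stage I, apart but not called (-0.58 ± 0.32, adjusted p = 0.358). At stage II it was at 132 and 137 against 33.5 and 22 CPM and fell (log2 fold change -2.28 ± 0.42, adjusted p = 0.00972), and at stage III at 13.6, 20.9 and 22.4 against 5.1, 1.92 and 2.67 CPM and fell (log2 fold change -2.56 ± 0.40, adjusted p = 0.000594). At stage IV it was at 9.53, 9.17 and 9.64 against 7.63, 5.78 and 1.08 CPM, apart but not called (-0.997 ± 0.389, adjusted p = 0.363). Of 8 tested genes of the Myc network 2 were higher at stage I, 1 was higher and 1 (Myc) lower at stage II, 1 (Myc) was lower at stage III and 0 were called at stage IV. Mxd1, which competes with Myc for Max, was higher under anti-IL5 at stages I and II (0.93 ± 0.17 and 0.93 ± 0.21, adjusted p = 0.00318 and 0.024), and Mxd3 at stage I (1.80 ± 0.28, adjusted p = 0.00057). Their part in the levels of the members was not tested.

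Markers of other cells moved with some of the comparisons. At stage III, 4 of 7 tested basophil and mast cell markers were lower under anti-IL5, with a summed level of the 11 listed genes of 1122 to 1584 CPM in isotype and 673 to 735 CPM in anti-IL5 libraries. Tpsb2, Tpsab1 and Mcpt4 were at 0 there, and none of the 7 was called at stages I, II and IV. Of 9 neutrophil markers 0, 0, 1 and 2 were higher under anti-IL5 at stages I to IV. Their summed levels were 2180 to 2863 CPM in isotype against 1990 to 5415 CPM in anti-IL5 libraries at stage I. At stage II they were 3880 to 5350 against 5917 to 6290 CPM, without overlap. At stage III they were 5293 to 8172 against 7494 to 9202 CPM. At stage IV they were 1493 to 1938 against 2561 to 3778 CPM, again without overlap. The 4 neutrophil progenitor markers summed to 3146 to 4821 CPM in isotype and 810.3 to 5338 CPM in anti-IL5 libraries of stage I. Of 2 tested T and NK markers 1 was lower at stage III, the 7 listed genes summing to 94.0 to 234 against 27.0 to 30.4 CPM, and 0 of 6 stem and progenitor markers were called at any stage. All 5 tested B lineage markers had positive fold changes at stages I and II (medians of 0.90 and 2.71), 1 of them called, at stage I. The 7 listed genes summed to 33.5 to 39.7 CPM in isotype and 38.6 to 46.3 CPM in anti-IL5 libraries at stage I and to 21.3 to 48.3 against 53.0 to 68.2 CPM at stage II, with Ms4a1 at 0 in all 4 groups. Of 7 monocyte markers 1 was higher at stage I and 0 were called at the other stages. Of the 10 eosinophil markers 2 were higher at stage I, 2 lower at stage III and 3 lower at stage IV. The 10 summed to 42591 to 49552 CPM in isotype and 26601 to 31922 CPM in anti-IL5 libraries at stage III, without overlap. At stage IV they summed to 10736.5 to 12116 against 9165 to 10326 CPM, again without overlap. At stages I and II the ranges overlapped (43624 to 50755 against 44670 to 54329 CPM, and 49352 to 68167 against 41764 to 53986 CPM). The part of these cells in the results was not tested.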

How the data were processed

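The deposited files hold raw counts per gene symbol, 1 file per library. The submitters' processing notes name STAR 2.6.1a, the mm10 build and DESeq2, the last without a role. How and with which annotation reads were counted, and whether by strand, is not given in the sources used here. Per the labels' protocols, cells bearing CD45R, NK1.1, CD90.2 or Ly6G were removed from the marrow, the stages were sorted on CD117, CD200R3, CD55, PIR-A/B, CD29, Siglec-F and F4/80 to a purity of at least 95%, and cDNA came from the SMART-Seq v4 kit, which does not mark strand. Reads without molecular barcodes are not independent molecules.

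Lines for no feature (12.7% to 22.1%) and ambiguous reads (1.86% to 2.39%) stayed out of totals and tests. All 22 libraries entered 1 edgeR 4.0.16 quasi-likelihood fit (R 4.3.3) of 8 groups with TMM, filterByExpr and robust dispersion, and p-values were adjusted over 12387 genes (Benjamini-Hochberg, 0.05). Errors after a fold change are standard errors, those after CPM are SD. The fit was also run on simulated counts of independent libraries with genes changed only in anti-IL5 stage III, unlike these data. No result given here rests on that run. The search for copied libraries found 0. The members and lists were chosen with earlier results of these data known. Named are, per comparison, up to 5 called members of largest fold change per direction with at least 10 CPM, the member of smallest p per role, 10 members named in each antibody comparison, and up to 3 other pathway genes; the remaining names were added to account for members. Alternatives were 2 other scalings, DESeq2 1.42.0, limma-voom (limma 3.58.1), no filter, fits of only the groups compared, a replicate block and leaving out each library. Positions are from GENCODE vM21 (GRCm38, the assembly of mm10), promoter windows from RefSeq.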

Additional observations from a re-analysis of the deposited data

Results flagged for a closer look

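In 3 members the effect of anti-IL5 differed between stages III and IV by edgeR's test of the difference itself. The difference was 2.43 on the log2 scale for Gnl3, 1.43 for Nop58 and 1.38 for Rrs1, each less negative or positive at stage IV. For Gnl3 the anti-IL5 values rested on 30, 36 and 15 counts at stage III and 46, 69 and 62 at stage IV. The isotype values of Gnl3 rested on 72, 97 and 97 and on 48, 60 and 31 counts. With limma-voom, and with only the groups compared in the fit, 0 members were called, and with DESeq2 8 were. Rrs1 lost its call in 9 of the 12 fits without 1 library, and Gnl3 and Nop58 in 0.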

How the results depend on the processing

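Counts of called members lay within 1.5 times the reported ones under the alternatives other than those named here, and no direction of a called member reversed. With limma-voom, stage I gave 34 calls and the difference between stages III and IV gave 0. With only the groups compared in the fit, the antibody comparisons gave 40 at stage I, 0 at stage II and 7 at stage III, and the difference between stages III and IV gave 0. DESeq2 gave 1 at stage IV and 8 for that difference. The cause was not tested. Leaving out 1 library gave 6 to 10 calls at stage I, 2 to 16 at stage II, 9 to 21 at stage III and 0 to 1 at stage IV. The isotype steps gave 5 to 14, 32 to 43 and 14 to 20, the anti-IL5 steps 17 to 26, 30 to 39 and 15 to 19, and the differences between adjacent stages 0, 0 and 2 to 5. In the step from stage I to II, the isotype count was 9 and 13 without stage I replicates 2 and 3 and 5 without stage II replicate 1, and the anti-IL5 count was 17 without either stage II replicate. Library totals without TMM shifted the median of all genes by -0.12 and -0.18 in the first and second isotype steps and by -0.16 and -0.20 in the anti-IL5 steps; calls over all genes then went from 403 lower and 916 higher to 562 and 648 (isotype, I to II), from 2236 and 2355 to 2945 and 1735 (isotype, II to III), from 639 and 900 to 909 and 591 (anti-IL5, I to II) and from 2437 and 2450 to 3150 and 1708 (anti-IL5, II to III). With the replicate block the antibody comparisons gave 27, 18, 21 and 0 members, the isotype steps 19, 43 and 21, the anti-IL5 steps 29, 38 and 23, and the differences 0, 0 and 4; 16 of the 20 calls of the first isotype step were among its 19. With the block within each antibody group the steps gave 21, 43, 22, 29, 40 and 23. Same-numbered libraries deviated together at r over 0.1 in 16 of 30 pairs between stages and in 2 of 11 pairs between antibodies. All 30 pairs between stages had a positive r (median 0.113, beside -0.049 for other numbers). Of 22 libraries, 21 correlated best with their own number within their antibody group and 22 over all other groups. Same-numbered libraries thus shared part of their spread, from a source the labels do not name. Since the labels give no pairing, the main fit did not pair samples by number. Its p-values treat the libraries as independent. Depth limits members under 1 CPM, where 3 counts equal 0.222 to 0.411 CPM.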
